A study of Homo sapiens with 6 samples.

Results

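The genes E2F1, E2F2, E2F3, E2F7, E2F8, RB1, RBL1, RBL2, FOXM1 and MYBL2 encode transcriptional regulators of the cell division cycle. They were taken by symbol from the annotation of the array, which gave 1 row to each, so that all 10 members of the set were measured among 23786 rows. Microarrays were used to profile HSC3, a cell line established from a human squamous carcinoma of the mouth. The compared groups were 3 wells treated with 0.1 μM E7386 dissolved in DMSO and 3 wells that received 0.1% DMSO. E7386 is a small molecule described as a blocker of the binding between β-catenin, the effector of Wnt signalling, and its coactivator CBP. Wells were treated 12 to 24 h after plating and collected 48 to 64 h later, and the hour of each well is not stated in the labels. All wells were of the same line. The titles call them biological replicates and the protocol describes triplicate wells, but no label ties them to separate experiments, so the spread behind every p-value is that between these wells and may be technical.

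Activator E2F proteins (E2F1, E2F2 and E2F3) bind promoters together with a DP partner and turn on genes needed to enter S phase. The pocket proteins RB1, RBL1 (p107) and RBL2 (p130) bind E2F proteins and hold those promoters silent until cyclin-dependent kinases phosphorylate them. RBL1 or RBL2 with E2F4 or E2F5, a DP partner and the MuvB core form the repressor complex DREAM, and later in the cycle the same core binds MYBL2 (B-MYB) and then FOXM1 to switch on genes of G2 and mitosis. The atypical factors E2F7 and E2F8 bind DNA without a DP partner and repress E2F targets late in S phase. Several members, among them E2F1, E2F2, E2F7, E2F8, RBL1 and MYBL2, are known to be E2F targets themselves.

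Values are log2 RMA values, so a difference of 1 is a 2-fold change, and the row in the middle of the arrays averaged 3.75. Array medians lay between 3.74 and 3.79, and Pearson correlations across all rows were 0.992 to 0.995 within groups and 0.982 to 0.985 between them. Of 7 measured epithelial markers, every group mean lay between 6.72 and 11.0 with E7386 and between 6.58 and 11.6 with DMSO. By the limma test described in the next paragraph 2 of them, the keratin genes KRT5 and KRT14, fell. That was 28.6% of the list, against 8.69% of all rows. The other 5 were not called, SFN and DSP with negative differences and CDH1, EPCAM and PKP1 with positive ones. A further 3 listed markers were found under no symbol. Below the middle row in both groups lay 6 of 8 fibroblast markers, 6 of 7 leukocyte markers and 5 of 6 endothelial markers. The leukocyte marker above it was CD68, a lysosomal protein gene, at 9.03 with E7386 and 9.06 with DMSO. Also above it were the fibroblast markers COL1A1 (5.30 with E7386 and 5.25 with DMSO) and THY1 (4.25 and 4.10). The endothelial marker above it was CLDN5 (4.20 and 4.46). The log2 values of the 8 fibroblast markers summed to 21.5 to 22.0 with E7386 and 20.9 to 23.1 with DMSO. Those of the leukocyte markers summed to 20.1 to 21.4 and 20.7 to 21.4, and those of the endothelial markers to 13.3 to 13.8 and 14.2 to 14.7. The endothelial sums did not overlap between the groups, though most of these markers lay below the middle row. No gene of these 3 lists passed the test described next.

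With E7386, 6 of the 10 genes fell, 1 rose and 3 were not called. A call required a limma adjusted p under 0.05, with the adjustment over all rows, and 8.69% of rows fell, 9.93% rose and 18.6% were called in one direction or the other. E2F8, MYBL2 and FOXM1 fell by the largest amounts, E2F2, RBL2 and RBL1 by less, and E2F7 rose. In 7 of the 10 genes all 3 E7386 wells lay below all DMSO wells, and in 1 all lay above, against 17.1% and 18.1% of all rows, or 35.2% for both directions together. In such bulk RNA, fewer cells in one phase of the cycle and less of a transcript per cell cannot be told apart.

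**Figure D1:**
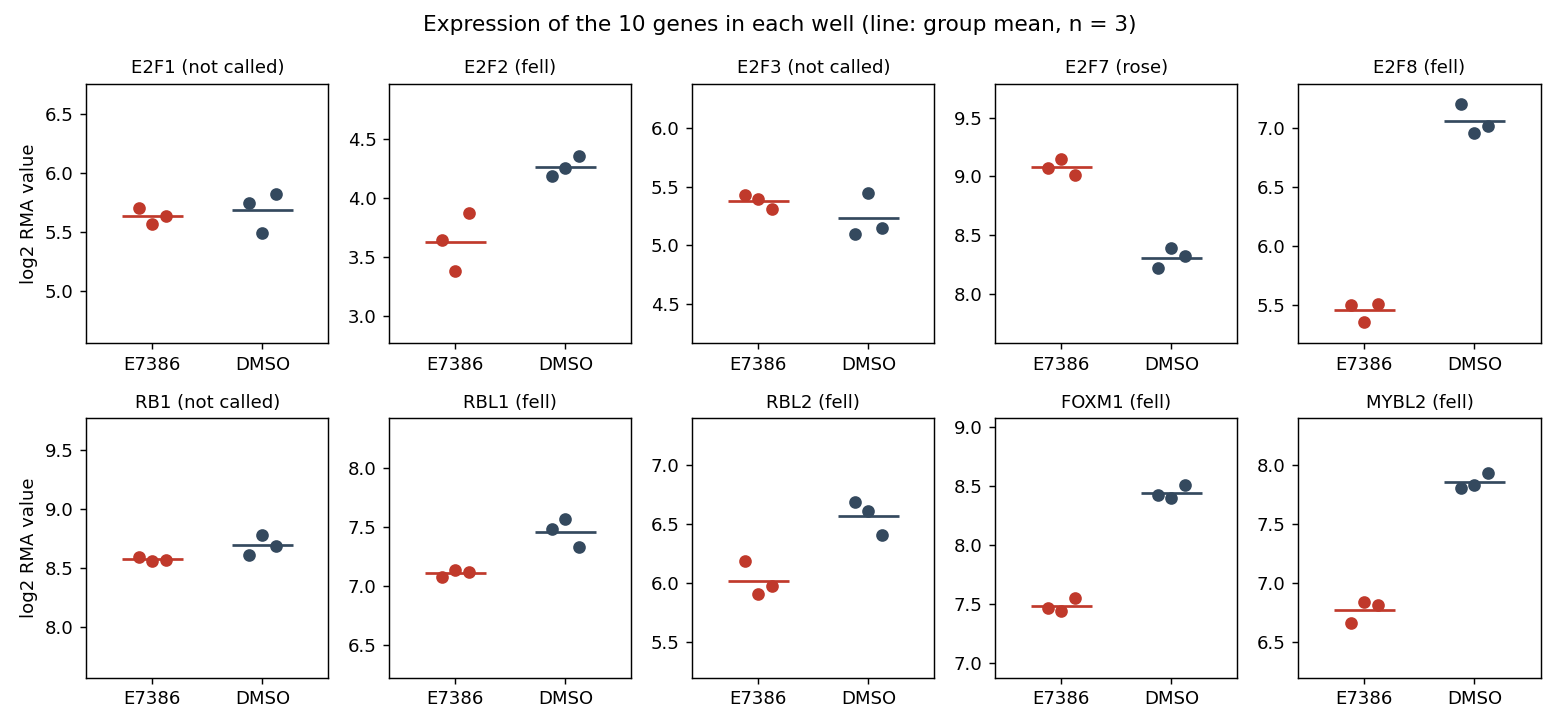
Log2 RMA value of each of the 10 genes (vertical axis, every panel spanning the same range in log2) in the 3 E7386 wells (left, red) and the 3 DMSO wells (right, dark blue), with a line at each group mean. The groups are apart in all panels but those of E2F1 and E2F3, and E2F7 is the panel in which the E7386 wells are the higher ones.

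The promoters of 8 of the 10 genes were found in RefSeq (GRCh38.p14) as windows of 250 bases before and 50 after each annotated start, and E2F8 and FOXM1 were not matched. They are shown because several of these genes are E2F targets that did not move alike. Capitals mark, on either strand, the E2F motif (TTTCGCGC, TTTGGCGC, TTTCCCGC or TTTGCCGC) or its shorter core (TTCGCG or TTGGCG, chosen after the sequences were seen, and overlapping the longer motif where both match). The longer motif was present in 3.31% of all 35116 promoter windows of that length and the core in 14.1%. Each line gives 60 bases, ending at the base before the start except for E2F7, whose stretch runs from base -150 to base -91. The places are chr20:33686386-33686445 (minus strand) for E2F1, chr1:23531234-23531293 (minus strand) for E2F2, chr6:20401819-20401878 (plus strand) for E2F3, chr12:77065660-77065719 (minus strand) for E2F7, chr20:37095998-37096057 (minus strand) for RBL1, chr16:53434411-53434470 (plus strand) for RBL2 and chr20:43667054-43667113 (plus strand) for MYBL2.
E2F1: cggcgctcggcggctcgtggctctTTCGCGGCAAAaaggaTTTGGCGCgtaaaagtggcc
E2F2: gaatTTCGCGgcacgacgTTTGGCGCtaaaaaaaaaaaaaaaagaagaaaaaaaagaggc
E2F3: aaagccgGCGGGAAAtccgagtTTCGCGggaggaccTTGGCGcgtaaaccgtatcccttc
E2F7: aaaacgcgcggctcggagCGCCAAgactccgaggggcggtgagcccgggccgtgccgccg
RBL1: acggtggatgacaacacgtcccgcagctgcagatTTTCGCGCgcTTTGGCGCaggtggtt
RBL2: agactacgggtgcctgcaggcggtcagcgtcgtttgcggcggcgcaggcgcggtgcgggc
MYBL2: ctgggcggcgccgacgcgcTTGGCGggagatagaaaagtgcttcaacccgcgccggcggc

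The longer motif was found within the last 60 bases before the start in E2F1, E2F2, E2F3 and RBL1. The core is part of TTTCGCGC and TTTGGCGC, so a core match inside them is no separate site. In RBL1 all core matches lay inside the longer motif and in E2F1 all overlapped it. E2F2 and E2F3 also held core matches apart from it. Of these 4 genes E2F2 and RBL1 fell, and E2F1 and E2F3 were not called. MYBL2, which fell, and E2F7, which rose, held 1 match of the core each and none of the longer motif. RBL2, which fell, held no match of either in this window or in that of its other annotated start. The window of RB1 in the table begins at a start 172699 bases into the gene and is not shown. CCAAT boxes, the sites of the factor NF-Y, were found 3 times in the E2F1 window and 4 times each in those of E2F3 and E2F7, on either strand, and once at the other annotated start of RBL2, and 34.6% of all windows held CCAAT. The element CHR (TTTGAA or TTCGAA, either strand), through which MuvB binds mitotic promoters, was found in the windows of E2F3 and RBL2, in RBL2 after the start, and in 16.4% of all windows. The window of the other annotated start of E2F3 held none of these motifs. Over all measured genes with a window, 17.4% of the 854 with the longer E2F motif fell, against 9.47% of the 15484 without it, and 10.3% and 11.3% rose. With the core 12.8% of 3517 genes fell and 14.0% rose, against 9.08% and 10.4% of the 12821 without it. With CHR 12.6% of 2867 genes fell and 8.79% rose, against 9.32% and 11.7% of the 13471 without it. With CCAAT 11.7% of 6823 genes fell and 11.5% rose, against 8.59% and 11% of the 9515 without it. The share of falls was larger with each of these motifs than without it, and the gap was widest for the longer E2F motif. The share of rises was larger with the core and with CCAAT, and smaller with the longer motif and with CHR. These shares are descriptions and were not tested.

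Among the activators, E2F2 was lower with E7386 and E2F1 and E2F3 were not called. E2F1 measured 5.70, 5.57 and 5.64 in the E7386 wells, against 5.75, 5.49 and 5.82 in the DMSO wells. The groups overlapped, and the difference was -0.051 ± 0.11 (SE; 95% interval -0.31 to 0.21; limma adjusted p = 0.82), which turned to 0.016 without the third DMSO well. E2F3 measured 5.43, 5.40 and 5.31 with E7386, against 5.10, 5.45 and 5.15 with DMSO, where the second well lay above all E7386 wells. Its difference was 0.15 ± 0.11 (95% interval -0.12 to 0.42; limma adjusted p = 0.45).

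E2F2 measured 3.64, 3.38 and 3.87 in the E7386 wells and 4.19, 4.25 and 4.36 in the DMSO wells, so that every E7386 well was below every DMSO well. It fell by 0.64 ± 0.13 on the log2 scale, a 1.55-fold decrease (limma adjusted p = 0.015). Its E7386 mean of 3.63 ± 0.24 (SD, n = 3) lay below the middle row and its DMSO mean of 4.27 ± 0.087 above it, a range in which RMA shrinks differences and a gene may be at background. Leaving out the third DMSO well ended the call (limma adjusted p = 0.054).

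The atypical repressors moved in opposite directions. E2F7 measured 9.07, 9.15 and 9.02 with E7386, against 8.22, 8.39 and 8.32 with DMSO. All E7386 wells were the higher ones, and E2F7 rose by 0.77 ± 0.090, a 1.70-fold increase (limma adjusted p = 0.0015), which placed it above 97.2% of all rows by difference. E2F8 measured 5.50, 5.35 and 5.51 with E7386, against 7.20, 6.95 and 7.02 with DMSO. It fell by 1.61 ± 0.10, a 3.05-fold decrease (limma adjusted p = 1.1e-04), the largest change among the 10 genes, and only 0.357% of all rows had a lower difference.

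The 2 genes were also compared within each array, where the log2 ratio of E2F7 to E2F8 was 3.57, 3.80 and 3.51 with E7386 and 1.03, 1.43 and 1.30 with DMSO. The size of such a ratio depends on the probes of both genes, and only its change is read here. It changed by 2.37, and the groups did not overlap. An exact two-sided permutation test over the wells gave p = 0.1, the smallest that 3 against 3 wells allow, and 0.2 after adjustment over the 6 pairs of members compared in this way. No pair could therefore pass a threshold of 0.05.

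Of the 3 pocket protein genes RBL1 and RBL2 fell and RB1 was not called. RB1, which encodes the retinoblastoma protein, measured 8.59, 8.56 and 8.57 with E7386 and 8.61, 8.78 and 8.69 with DMSO. The wells of the groups did not overlap, yet the difference of -0.12 ± 0.086 was not called (95% interval -0.32 to 0.082; limma adjusted p = 0.42). RBL1, the pocket protein gene most tied to proliferating cells, measured 7.08, 7.14 and 7.12 with E7386, against 7.48, 7.57 and 7.33 with DMSO. It fell by 0.35 ± 0.094, a 1.27-fold decrease (limma adjusted p = 0.040). Leaving out any single well other than the third from DMSO ended the call, with limma adjusted p values between 0.097 and 0.11.

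RBL2, whose protein p130 accumulates in resting cells, measured 6.18, 5.90 and 5.97 with E7386 and 6.69, 6.61 and 6.40 with DMSO. Every E7386 well was below every DMSO well, and RBL2 fell by 0.55 ± 0.12, a 1.46-fold decrease (limma adjusted p = 0.016). Leaving out the second or the third E7386 well ended the call (limma adjusted p = 0.063 and 0.062), as did leaving out the second DMSO well (0.054), and without the first DMSO well the value lay just above the threshold. Within arrays, the log2 ratio of RBL1 to RBL2 was 0.89, 1.24 and 1.15 with E7386 and 0.80, 0.96 and 0.92 with DMSO. These groups overlapped (exact permutation p = 0.3, adjusted p = 0.36). The ratio of RB1 to RBL1 was 1.52, 1.42 and 1.46 with E7386 and 1.13, 1.22 and 1.36 with DMSO, a change of 0.23 with groups that did not overlap (exact permutation p = 0.1, adjusted p = 0.2).

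FOXM1 and MYBL2, the factors that act on promoters of G2 and mitosis, were both lower with E7386. FOXM1, a forkhead factor, measured 7.47, 7.44 and 7.55 with E7386, against 8.42, 8.40 and 8.51 with DMSO. It fell by 0.96 ± 0.086, a 1.94-fold decrease (limma adjusted p = 4.3e-04). MYBL2 measured 6.66, 6.84 and 6.81 with E7386, against 7.81, 7.83 and 7.93 with DMSO. It fell by 1.09 ± 0.092, a 2.12-fold decrease (limma adjusted p = 3.4e-04). In both genes the gap between the groups was several times the spread within them, and 1.48% and 1.12% of all rows had lower differences.

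The ratio of FOXM1 to MYBL2 within arrays was 0.80, 0.60 and 0.75 with E7386 and 0.62, 0.57 and 0.58 with DMSO. The groups overlapped and the change was 0.13 (exact permutation p = 0.2, adjusted p = 0.3). The ratio of E2F1 to E2F2 was 2.06, 2.19 and 1.77 with E7386 and 1.56, 1.24 and 1.47 with DMSO, with no overlap and a change of 0.59 (exact permutation p = 0.1, adjusted p = 0.2). For E2F1 to E2F3 the groups overlapped and the change was -0.20 (exact permutation p = 0.4, adjusted p = 0.4).

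**Figure D2:**
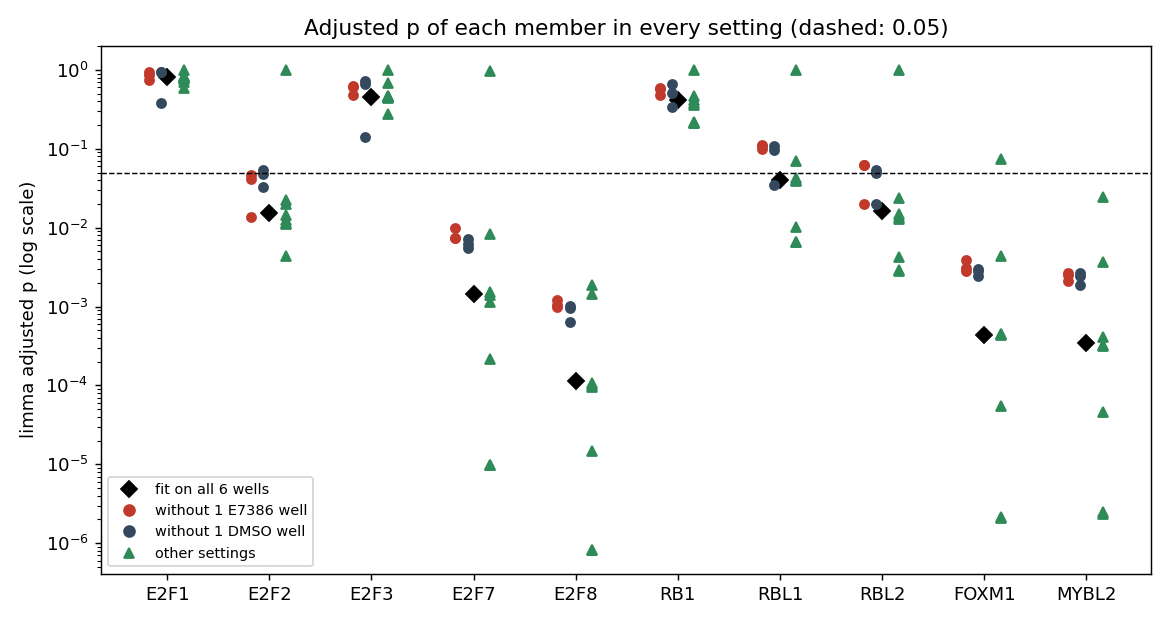
Limma adjusted p (vertical log axis) of each of the 10 genes in the fit on all 6 wells (black diamonds), without 1 E7386 well (red), without 1 DMSO well (dark blue) and under the other settings (green triangles), with a dashed line at 0.05. E2F7, E2F8, FOXM1 and MYBL2 stay below the line when any one well is left out, while E2F2, RBL1 and RBL2 each cross it without at least 1 of the wells.

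Of the 5 other E2F and DP genes 1 rose and none fell, with a median difference of 0.14, against -0.016 over all rows. Over all rows 9.93% rose and 8.69% fell. E2F4, the repressor E2F of DREAM, measured 7.52, 7.63 and 7.61 with E7386 and 7.24, 7.28 and 7.34 with DMSO. It rose by 0.30 ± 0.084 (limma adjusted p = 0.044), and the call was lost without any one of the 6 wells (0.071 to 0.14) and under median centring (0.055). E2F5, which also encodes a repressor E2F, differed by 0.31 ± 0.11 and lay below the middle row in both groups. E2F6, a repressor that needs no pocket protein, differed by 0.14 ± 0.12. The DP genes TFDP1 and TFDP2 lay at -0.26 ± 0.082 and -0.38 ± 0.14, short of a call (limma adjusted p = 0.071 and 0.12). TFDP1 fell with an intensity trend (limma adjusted p = 0.0027) and both fell when rows below the middle one were left out (0.017 and 0.048).

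In the MuvB core, LIN37 rose and the other 4 genes were not called. This 1 rise is 20% of a list of 5 genes, while 9.93% of all rows rose and 8.69% fell. LIN37, the subunit needed for repression by DREAM, measured 7.21, 7.21 and 7.46 with E7386, against 6.10, 6.08 and 6.27 with DMSO. It rose by 1.14 ± 0.11, a 2.21-fold increase with no overlap between the groups (limma adjusted p = 5.3e-04). LIN9 differed by 0.10 ± 0.081, LIN52 by 0.017 ± 0.14, LIN54, which binds the CHR element, by -0.12 ± 0.090, and the histone-binding subunit gene RBBP4 by -0.11 ± 0.10. The median of the 5 was 0.017. The other MYB genes were not called, with MYB at -0.018 ± 0.10 and MYBL1 at 0.13 ± 0.11. MYB lay below the middle row in both groups.

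**Figure D3:**
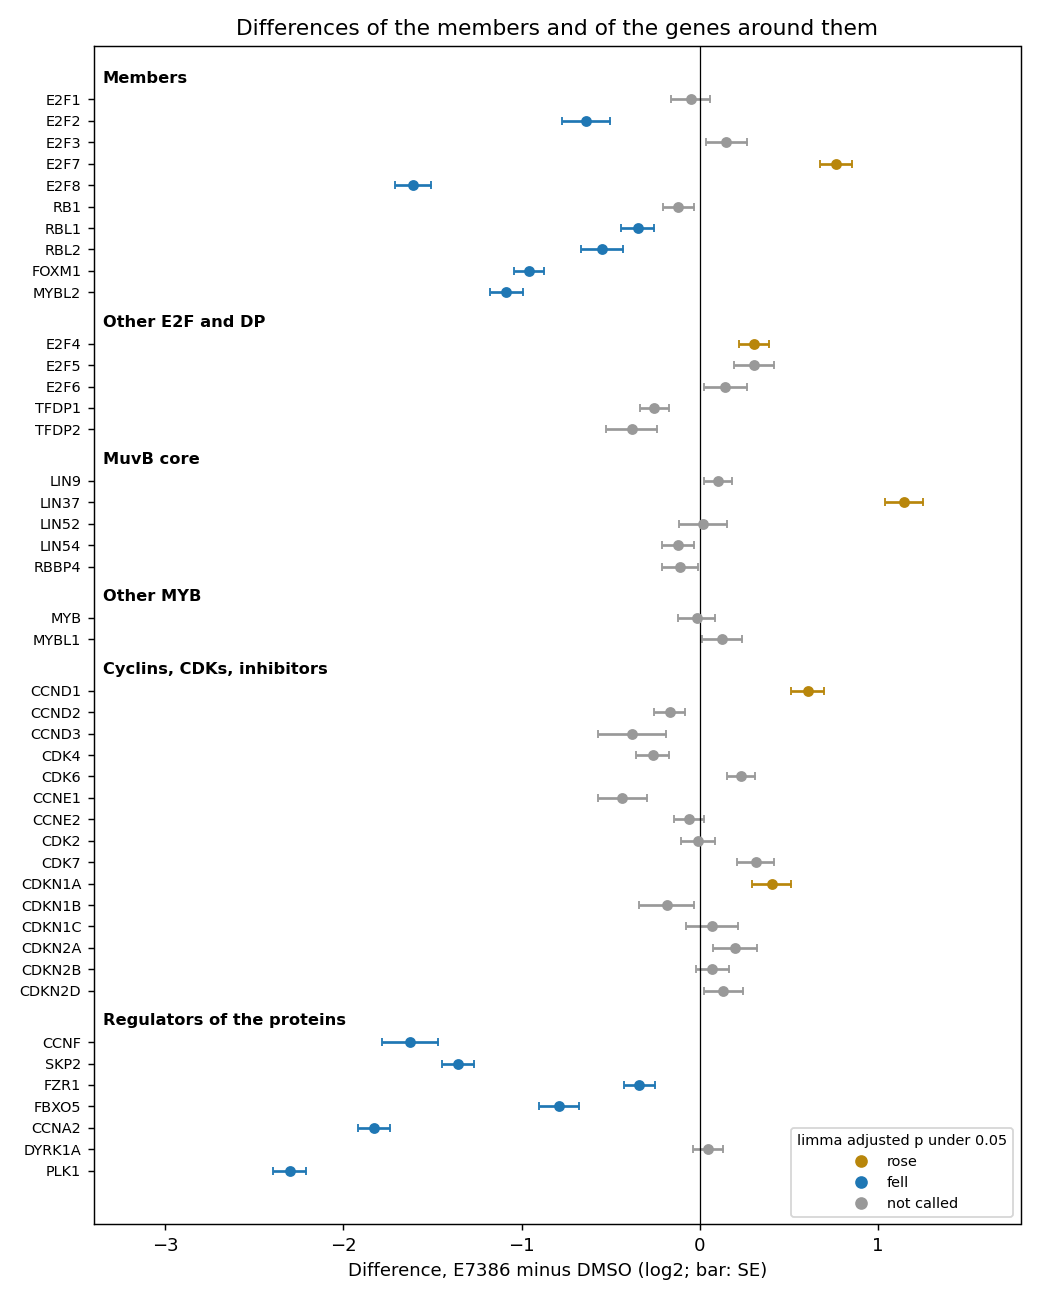
Difference, E7386 minus DMSO, on the log2 scale with its SE (horizontal axis) for the 10 genes and for the lists of genes around them, coloured by whether the gene rose, fell or was not called in limma. The falls gather among the members and among the regulators of their proteins. The genes that rose were the member E2F7 and, outside the members, LIN37, CCND1, E2F4 and CDKN1A.

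Upstream of the pocket proteins, 2 of 15 measured genes of the G1 cyclins, their kinases and the kinase inhibitors rose and none fell, with a median of 0.069. The share that rose, 13.3%, was near the 9.93% of all rows that rose, while 8.69% of all rows fell. CCND1, the cyclin D1 gene, measured 10.53, 10.60 and 10.52 with E7386 and 9.85, 9.92 and 10.06 with DMSO, and rose by 0.61 ± 0.092. CDKN1A, the gene of the kinase inhibitor p21, measured 5.48, 5.38 and 5.35 with E7386 and 4.88, 5.20 and 4.93 with DMSO. It rose by 0.40 ± 0.11 (limma adjusted p = 0.042), a call that ended on leaving out any single well other than the second from DMSO (0.092 to 0.12) and under a second quantile normalization (0.075). CCNE1, the cyclin E1 gene and an E2F target, lay at -0.43 ± 0.14, short of a call (limma adjusted p = 0.071), and fell without the second E7386 well (0.049) or without the rows below the middle one (0.026). It averaged 3.76 with E7386 and 4.20 with DMSO, near the middle row, where a gene may be at background. The rises of this list numbered 1 when any one well except the second from DMSO was left out, and 4 with an intensity trend.

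Genes whose products act on the member proteins or their complexes, directly or through other proteins, were for the most part lower. Of these 7 genes 6 fell, with a median of -1.36. Over all rows 8.69% fell, and PLK1 of this list is counted again among the targets below. CCNF, whose product cyclin F directs the destruction of several E2F proteins, measured 4.56, 4.31 and 4.73 with E7386, against 6.07, 5.98 and 6.43 with DMSO, and fell by 1.63 ± 0.16 (limma adjusted p = 6.0e-04). SKP2, the ubiquitin ligase subunit that targets p27 and p130, measured 8.29, 8.27 and 8.33 with E7386, against 9.75, 9.62 and 9.59 with DMSO, and fell by 1.36 ± 0.087. CCNA2, the cyclin A gene, fell by 1.83 ± 0.089, and PLK1, the kinase that activates FOXM1, had the largest fall of the list, by 2.30 ± 0.091. FBXO5, an inhibitor of the anaphase-promoting complex, fell by 0.79 ± 0.11, and FZR1, an activator of that complex, fell by 0.34 ± 0.087. The call of FZR1 ended on leaving out any single well other than the first from DMSO (limma adjusted p = 0.065 to 0.10). DYRK1A, the kinase that promotes assembly of DREAM, was the gene not called, at 0.044 ± 0.084. FBXO5, FZR1 and DYRK1A were chosen after their values were seen.

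Known targets of these factors fell for the most part, while 8.69% of all rows fell and 9.93% rose. Of 31 measured E2F targets of the G1/S transition 21 fell, 2 rose and 8 were not called, with a median of -0.49 and a range of -1.22 to 0.46. The lowest values belonged to CDC45, TK1, TYMS and GINS2, genes of helicase assembly and thymidylate supply, and the 2 that rose were RFC4 and MCM7, also genes of replication. The call of MCM7 ended on leaving out any one of the 6 wells (limma adjusted p = 0.060 to 0.15) and under median centring (0.054), which left 1 rise. Of 34 measured targets of MYBL2-MuvB and FOXM1 33 fell and none rose, with a median of -1.69. Lowest were the kinesin gene KIF20A at -3.48 ± 0.10, PLK1, CCNB1, a cyclin gene, at -2.18 ± 0.15 and CENPE, a kinesin gene of the kinetochore, at -2.13 ± 0.14. CDC25B, a phosphatase gene, was the target not called, at 0.31 ± 0.092 (limma adjusted p = 0.055), and was chosen after its value was seen. It rose with an intensity trend (0.0063) or without the rows below the middle one (0.015). Earlier results of these data had already shown many of these targets to be lower, so the lists are no independent evidence of direction, and the difference between their medians was not tested.

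Targets of p53, which represses cell cycle genes through p21 and DREAM, went both ways. Of 19 measured genes 5 rose and 4 fell, with a median of 0.071. These counts were 26.3% and 21.1% of the list, against 9.93% and 8.69% of all rows. CDKN1A, already counted above among the kinase inhibitors, is among the 5 rises. The rises numbered 3 without any one E7386 well or without the third DMSO well. GDF15, a secreted stress cytokine gene, rose by 0.81 ± 0.13, the DNA repair gene XPC by 0.61 ± 0.10 and ZMAT3, an RNA-binding protein gene, by 0.54 ± 0.086. The cyclin G1 gene CCNG1 fell by 0.68 ± 0.086, the DNA damage recognition gene DDB2 by 0.53 ± 0.089, the translesion polymerase gene POLH by 0.43 ± 0.081 and the sestrin gene SESN1 by 0.43 ± 0.11. The call of SESN1 was lost in 5 of the 6 fits that left out 1 well. POLH averaged 3.79 with E7386 and 4.22 with DMSO, and SESN1 3.93 and 4.35. These means lie little above the middle row of 3.75, where a gene may be at background.

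**Figure D4:**
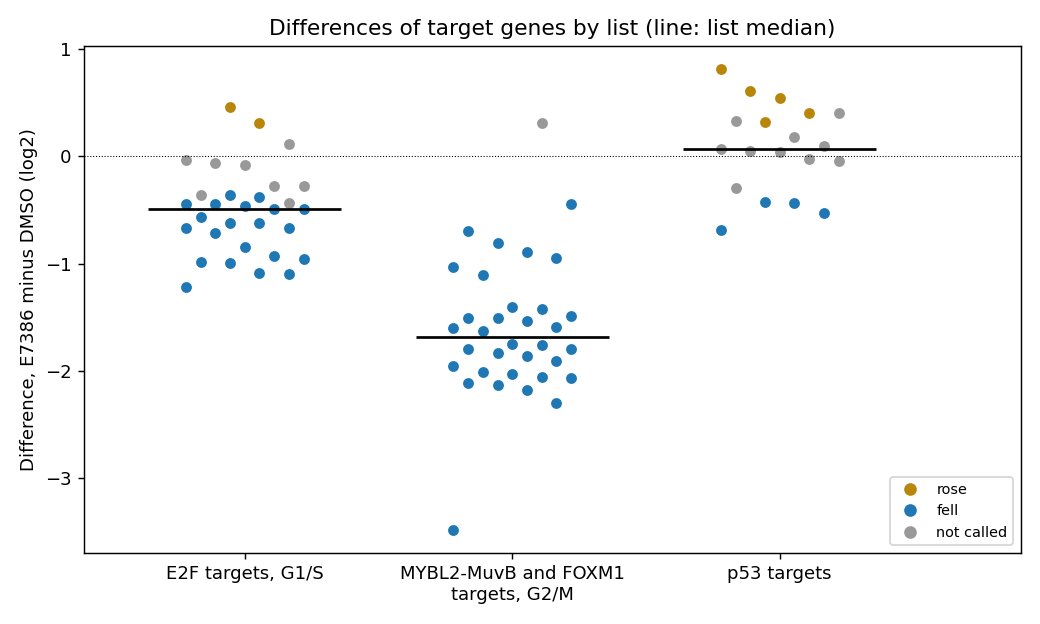
Difference, E7386 minus DMSO, on the log2 scale (vertical axis) of each measured gene in the lists of G1/S targets of E2F, of G2 and mitosis targets of MYBL2-MuvB and FOXM1, and of p53 targets, coloured by call in limma, with a line at each list's median. The medians lie at -0.49, -1.69 and 0.071, and the p53 list holds genes that rose and genes that fell.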

How the data were processed

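Per the submitters' processing notes, the log2 values deposited by the authors came from RMA and affy 1.36.1. RMA corrects background, equalises the distributions of the arrays and summarises the probes of a gene, which hides any change in the total RNA of a cell. The probe set definition and genome build of the array are not stated in those notes or the labels. All 6 arrays entered. Of 23786 rows 22458 had a symbol in the platform annotation, and 10 genes of the lists were found under no symbol there and were not analysed here. Differences are E7386 minus DMSO from limma 3.58.1 in R 4.3.3, fitted to all rows with treatment as its only term and a constant prior, with Benjamini-Hochberg adjustment over all rows. The code was tested on simulated data. The number of arrays limits the precision, and the median SD within groups was 0.15. Within-array ratios of members were tested by exact two-sided permutation.

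The members and lists were chosen with earlier results of these data known. The text names all members, all genes of the smallest 3 lists around them, the 4 called genes with the largest differences of each other pathway list, up to 4 called genes against its majority, and CDKN1A, CCND1 and CCNE1. Outside this rule FBXO5, FZR1, DYRK1A and CDC25B were named after their values were seen, as were all cell type markers named in the text. Lists are described by counts and medians, without a set test. Promoter sequences are those of RefSeq (GRCh38.p14).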

Additional observations from a re-analysis of the deposited data

How the results depend on the processing

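Results were recomputed after median centring or a second quantile normalization, without rows below the middle one, with limma's intensity trend (alone or with its robust prior), with weights for arrays, with a replicate block, against a 1.5-fold minimum (limma's treat), and without each well. Of the 10 genes, 7 were called in the fit on all wells and 5 to 6 when 1 well was left out, while 2, E2F8 and MYBL2, were called with the 1.5-fold minimum. That minimum, a stricter hypothesis, left 422 calls over all rows, and 1 rise and 33 falls among 114 genes of the pathway lists, against 4430 calls, 10 rises and 63 falls. Over all rows, leaving out a well gave 2907 to 3635 calls, the lowest without the third E7386 well. Among the pathway genes it gave 6 to 7 rises and 57 to 60 falls, with 6 rises without any one E7386 well or without the third DMSO well. With the replicate block the pathway rises were 6, 3 of them p53 targets, over all rows 3701 genes were called, and RBL1 (limma adjusted p = 0.071), E2F4 (0.080), CDKN1A (0.077), MCM7 (0.094) and FZR1 (0.060) lost their calls. Whether the numbers pair the wells is not settled. Same-numbered deviations correlated at 0.051, 0.12 and -0.0077, and differently numbered ones at -0.098 to 0.041. Without 1 well E2F1 ranged from -0.15 to 0.016, MYB from -0.095 to 0.046 and LIN52 from -0.058 to 0.13, and LIN52 was at -1.1e-04 under the second quantile normalization. These 3 genes were not called in any setting. No other member or named pathway gene changed direction in any setting that tested it.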
